A study of Mus musculus with 20 samples.

Results

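Nuclear ribosomal RNA fragments were taken as the sequenced tags of 18 to 45 nt that lie wholly and without mismatch inside a mouse transcript of type rRNA in GENCODE M21 (GRCm38), the mitochondrial rRNAs excepted, and that match no miRNA hairpin. A tag is one distinct sequence of a small RNA library, with the number of reads that showed it. The rule gave 2934 tags of 7911246 distinct tags, and 4118052 of 299949470 reads (1.37%). Reads of a tag found in several gene copies were divided equally over them. The 20 libraries hold 1 sample for each combination of cell type, genotype and stimulus, from bone marrow of mice aged 8 to 12 weeks. GM-CSF turned the marrow cells into dendritic cells and M-CSF into macrophages, both supplied as hybridoma supernatant. The genotypes were wild type C57BL/6 and B6.Cg-Mir155tm1.1Rsky/J, which lacks miR-155, and each culture was left without stimulus or given LPS, oxLDL, eLDL or LDL. Dendritic cells received 200 ng/ml LPS overnight at day 8 to 9, whereas the sources used here give no lipoprotein dose and, for macrophages, no dose or time of any stimulus. LPS is a bacterial cell wall component, and oxLDL and eLDL are modified forms of the lipoprotein LDL. The labels call the cells bone marrow derived and the series' design text monocyte-derived.

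Libraries held 10.3 to 17.1 M (1e6) reads in dendritic cells and 13.5 to 22.8 M in macrophages, so that 3 reads, the upper limit that a count of 0 allows, stand for 0.132 to 0.293 RPM, for counting error only. RPM are reads per 1e6 reads of the file. Mir155 hairpin reads were 70.4 to 6113 RPM in wild-type and 0.167 to 0.461 RPM in knockout dendritic cells, and 2866 to 21303 RPM in wild-type and 1.90 to 2.90 RPM in knockout macrophages. The blood cell miRNA Mir142 stood at 8983 to 15595 RPM in all libraries, and Mir122 of liver and Mir124a-1 of neurons at no more than 2.22 and 0.285 RPM. Of the epithelial miRNAs, Mir200a stood at 15.2 to 44.3 RPM, Mir200b at 15.4 to 77.6, Mir200c at 6.14 to 42.3, Mir141 at 6.81 to 29.9 and Mir429 at 2.15 to 20.2, and their part in the results was not tested. In macrophages 6.84% to 7.18% of reads held an unread base (N), against 0.125% to 0.133% in dendritic cells. It lay at base 20 of the read in 7.52% to 7.92% of macrophage reads of at least 20 nt.

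A eukaryotic ribosome holds 18S, 5.8S and 28S rRNA, which RNA polymerase I makes as one precursor in the nucleolus, and 5S rRNA, which RNA polymerase III makes from separate repeated genes. 5S rRNA sits in the large subunit and also exists bound to ribosomal proteins before assembly. Short pieces of abundant structural RNAs are a regular part of small RNA libraries and show at which positions of the parent molecule the pieces begin and end.

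The members were in effect fragments of 5S rRNA. GENCODE lists 354 nuclear rRNA transcripts, which fell into 52 groups by shared sequence, and 8 groups had reads. The 5S group of 303 copies held 2878 tags and 99.99% of the member reads, on 210 of its copies. The remaining groups were Gm24601 with 304 reads, n-R5-8s1 (5.8S rRNA) with 117, Gm25447 with 19, Gm24991 with 12, Gm24186 with 9, Gm27781 with 4 and CT010467.1 with 1. The lincRNA genes Gm42418 and Gm26917 were taken as loci of the 18S and 28S precursor and are outside the members. Gm42418 had 33792 to 81431 RPM in dendritic cells and 37191 to 69373 RPM in macrophages. Gm26917 had 157 to 475 RPM in dendritic cells and 125 to 246 RPM in macrophages. Which parts of the precursor each gene holds was not tested.

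The most frequent 5S sequence, 119 nt long, is shared by 32 copies, all on chromosome 8 of GRCm38, Rn5s on the minus strand among them. Positions below count from its first base, and it is called the modal sequence. Tags are named by their first and last base on it, so that the most abundant tag, from base 72 to base 95, is 5S 72-95.
The 4 tags below carry the main results, being long and short forms that stop at base 95. In the first pair, capitals mark bases 71 and 72, which the shorter forms lack.
5S 71-95: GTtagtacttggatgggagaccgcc
5S 72-95: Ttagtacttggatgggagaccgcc
5S 75-95: gtacttggatgggagaccgcc
5S 77-95: acttggatgggagaccgcc

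No copy could be told apart by most reads. Only 0.601% of member reads lay in tags of a single copy. The equal split gave most reads to Gm24312, n-R5s106 and n-R5s118, all on the minus strand of chromosome 8, each with 280.2 RPM on average, and Rn5s received 272.1 RPM. The tags were also not free of other annotation. A protein-coding transcript of Tmem38b contains 435 member tags with 90.9% of the member reads, so by sequence alone those reads could have come from either gene. A further 570 tags with 167677 reads matched nuclear rRNA but also 4 hairpins annotated as miRNAs (Gm47276, Gm47281, Gm47285 and Gm47301). The rule left them out, and on 5S they lay between bases 33 and 91, so the profile is thinned there.

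The 3′ end at base 95 dominated every library. Tags of any start that stop at base 95 made up 76.6% to 89.2% of member reads in dendritic cells and 75.6% to 81.3% in macrophages. Their starts spread over bases 71 to 77. The mean over 20 libraries was 3649 RPM for 5S 72-95 (24 nt), 1622 for 5S 71-95, 1441 for 5S 73-95, 1378 for 5S 75-95, 1159 for 5S 74-95, 780 for 5S 77-95 and 772 for 5S 76-95. The next tag, 5S 96-119 with 312 RPM, begins at the base after that stop and runs to the last base of the molecule. Then came 5S 69-95 with 266 RPM and the 3′ tags 5S 94-119, 5S 102-119 and 5S 101-119 with 206, 171 and 130 RPM. These 12 tags held 84.9% of member reads, while 1002 tags were seen as 1 read in all.

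**Figure D1:**
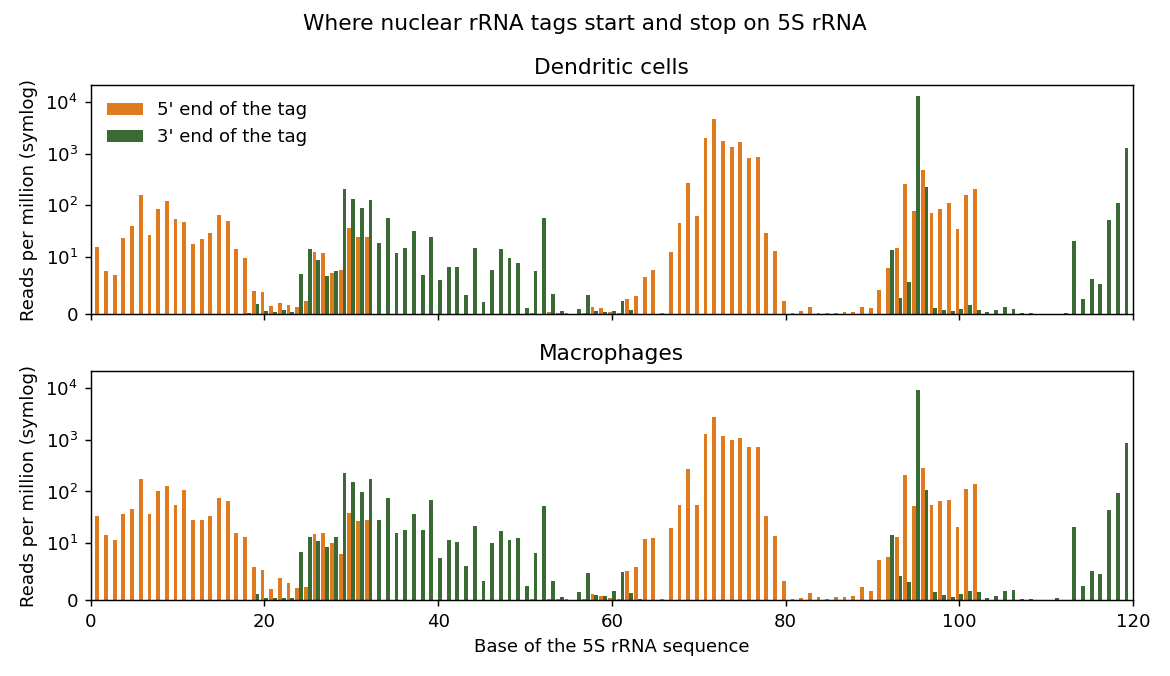
Mean RPM of tags by their first base (orange) and last base (green) along 5S rRNA, over the 10 libraries of each cell type, on an axis that is linear below 10 and logarithmic above. The 3′ ends pile up at base 95 and base 119 and the 5′ ends at bases 71 to 77 in both cell types; tags between bases 33 and 91 that match annotated hairpins are not counted.

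The remaining reads came from the 3′ end and the 5′ part. Tags that stop at base 119 gave 972 to 1825 RPM in dendritic cells and 755 to 1078 RPM in macrophages. Mean tag length was 22.5 to 23.3 nt in dendritic cells and 22.7 to 23.3 nt in macrophages, and 78.8% to 92.1% of member reads were 20 to 25 nt long. At most 0.0126% were over 40 nt. The files stop at 45 nt, so whole 5S molecules are not among the tags.

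Nuclear rRNA reads were most abundant in the LPS libraries of dendritic cells. In the order none, LPS, oxLDL, eLDL and LDL, the level was 16051, 21366, 11386, 18163 and 15190 RPM in wild-type dendritic cells. In knockout dendritic cells it was 14398, 20638, 13477, 16236 and 15390 RPM. The LPS libraries, at 1.33 and 1.43 times the unstimulated level of their genotype, were above the 11386 to 18163 RPM of the 8 dendritic cell libraries without LPS. With oxLDL the level was 0.709 times the unstimulated one in wild-type and 0.936 times in knockout dendritic cells, so the fold of the wild-type pair was no smaller than that of LPS. Wild-type macrophages had 10121, 11097, 12833, 9589 and 9725 RPM in the same order. Knockout macrophages had 11423, 12562, 11824, 14864 and 13234 RPM, with no stimulus at the top in both genotypes.

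**Figure D2:**
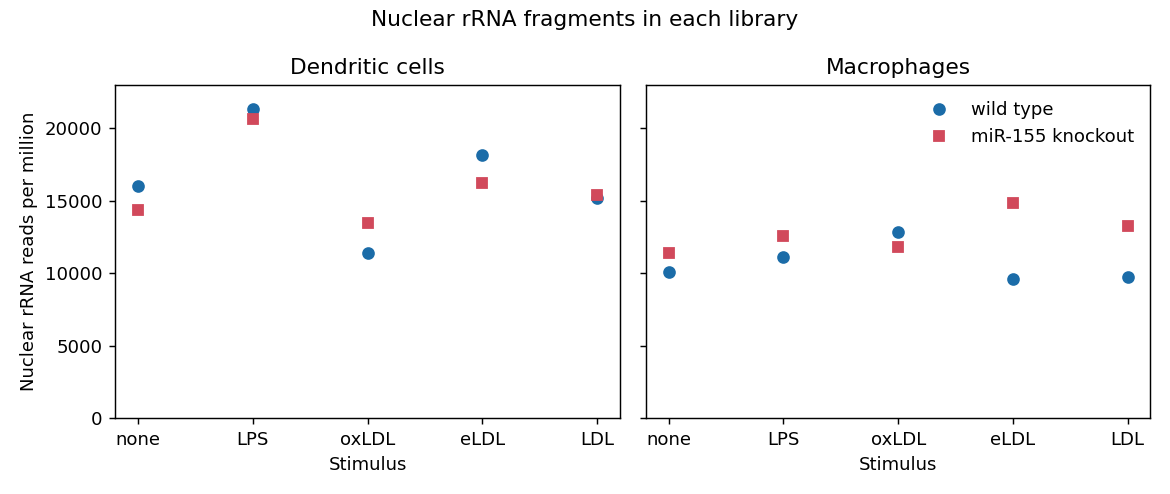
Nuclear rRNA RPM in each of the 20 libraries, by stimulus, cell type and genotype; each point is 1 library. The LPS points of dendritic cells, 21366 and 20638, are the highest of the plot, and macrophage points lie between 9589 and 14864.

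With LPS the 5S fragments of dendritic cells rose most in the forms that start at base 71 or 72. 5S 72-95 went from 3089 to 9084 RPM in wild-type and from 3498 to 8300 RPM in knockout dendritic cells, and its 6 values with lipoproteins were 2562 to 4259 RPM. Both LPS libraries thus lay far above all others of the cell type. 5S 71-95 went from 1400 to 3544 RPM and from 1558 to 3365 RPM. The shorter forms showed no such difference between the libraries. 5S 75-95 was 2197 RPM without and 1602 RPM with LPS in wild-type cells, and 1587 and 1628 RPM in knockout cells. 5S 77-95 was 1012 and 657 RPM in wild-type cells and 808 and 771 RPM in knockout cells. In ratios, 5S 72-95 was 2.94 times its unstimulated level in wild-type and 2.37 times in knockout cells.

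In edgeR's quasi-likelihood test over all 16108 tags that passed the filter (at least 5 RPM in at least 2 libraries), with Benjamini-Hochberg adjustment, 8 of the 150 members tested rose with LPS in dendritic cells and 0 fell. That is 5.33%, against a background of 7.75% of all tags called higher and 0.962% called lower under this scaling. The log2 change was 2.10 ± 0.25 (SE) for 5S 72-95 (edgeR adjusted p = 0.000306), 1.92 ± 0.26 for 5S 71-95 (adjusted p = 0.000687) and 0.91 ± 0.20 for 5S 73-95 (adjusted p = 0.0121). Each was higher in 2 of 2 matched pairs. Their forms with 1 more base at the 3′ end also rose, 5S 72-96 by 2.26 ± 0.30 and 5S 71-96 by 2.14 ± 0.35. The others called were 5S 71-95 A90G, 5S 72-95 T76G and 5S 100-119, the last with a log2 change of 0.98 ± 0.26. Summed tags that stop at base 119 were 1825 RPM without and 972 RPM with LPS in wild-type cells, and 1096 and 1027 RPM in knockout cells. In the TMM-scaled fit the median log2 change of the 12 tested was 0.43. For the most abundant of them, 5S 96-119, it was -0.86 to -0.017 when 1 library at a time was left out. For 5S 75-95, 5S 74-95, 5S 77-95 and 5S 76-95 the log2 changes of 0.47, 0.38, 0.33 and 0.31 did not pass (edgeR adjusted p = 0.173 to 0.454) and turned to -0.22, -0.31, -0.34 and -0.37 when libraries were scaled by total reads.

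Scaling matters for LPS in dendritic cells. The TMM factors of the main fit set the median change of all tags at 0.09, and scaling by total reads at -0.41. With total reads 5S 72-95 rose by 1.41 ± 0.20 and 5S 71-95 by 1.23 ± 0.22 (edgeR adjusted p = 0.00193 and 0.00785), the change of 5S 73-95 was 0.23 and not called, and 5 members (3.33%) were called higher and 1 lower, against 2.23% of all tags called higher and 4.47% called lower. The members' share of higher calls was thus below that of all tags under TMM and above it with total reads. In dendritic cells, 3 members were called without the wild-type unstimulated or the wild-type LPS library, and 5 without the knockout unstimulated library.

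The change in form is independent of scaling, since it compares tags within a library. Among reads that stop at base 95, those that start at base 71 or 72 were 36.5% (95% Wilson interval 36.3% to 36.8%, counting error only) in unstimulated and 66.2% (66.1% to 66.4%) in LPS-treated wild-type dendritic cells. In knockout dendritic cells they were 42.9% (42.6% to 43.1%) and 63.6% (63.5% to 63.8%). The 8 dendritic cell libraries without LPS ranged from 36.5% to 46.6%, so the 2 LPS libraries stood apart in both genotypes. In macrophages the share was 41.8% without and 45.5% with LPS in wild type, and 45.1% and 42.3% in the knockout, inside the 40.8% to 47.0% of the 8 macrophage libraries without LPS. The ratio of 5S 72-95 to 5S 75-95 went from 1.41 to 5.67 in wild-type and from 2.20 to 5.10 in knockout dendritic cells. With 2 pairs no exact permutation test of these shares can pass a threshold.

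**Figure D3:**
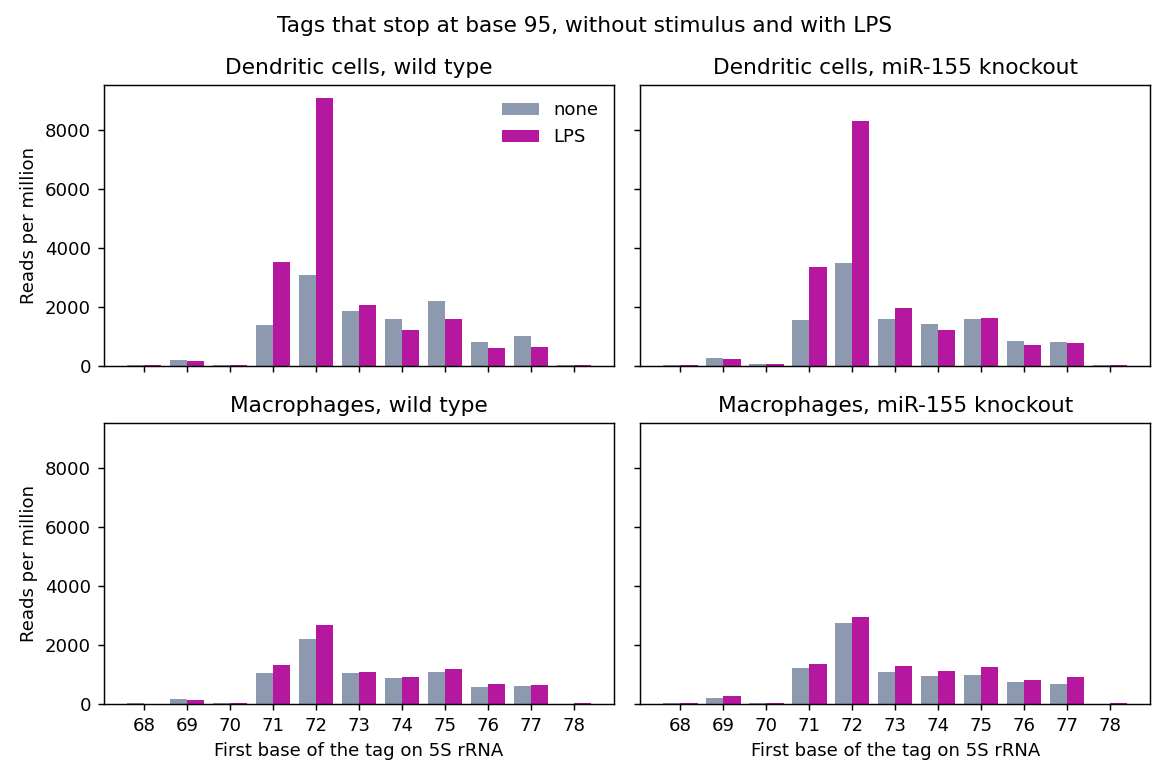
RPM of the tags that stop at base 95 of 5S rRNA, by first base, in unstimulated (grey) and LPS-treated (purple) libraries; each bar is 1 library. In dendritic cells of both genotypes the bars at bases 71 and 72 are taller with LPS (9084 against 3089 RPM at base 72 in wild type), while at base 75 they stand at 2197 and 1602 RPM without and with LPS in wild type and at 1587 and 1628 RPM in the knockout.

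In macrophages 0 of 150 members passed for LPS with edgeR (5 at an unadjusted p under 0.05, 0 with DESeq2), where 1.22% of all tags were called higher and 0.863% lower. Of all 16108 tags 1936 were at an unadjusted p under 0.05. The log2 change of 5S 72-95 was 0.23 ± 0.24 and that of 5S 71-95 0.28 ± 0.25. The difference between the LPS changes of the 2 cell types was itself tested. It was lower in macrophages by edgeR for 3 members and higher for 0, where 0.987% of all tags were called lower and 0.0869% higher. The difference (macrophages minus dendritic cells) was -1.87 ± 0.34 for 5S 72-95 (adjusted p = 0.0187), -1.64 ± 0.35 for 5S 71-95 (adjusted p = 0.0419) and -2.07 ± 0.42 for 5S 72-96 (adjusted p = 0.0315), in 2 of 2 genotypes each. With total reads these fell short at -1.21 (adjusted p = 0.0920), -0.98 (0.194) and -1.42 (0.142). Without any 1 of the 4 macrophage libraries or of the wild-type unstimulated, wild-type LPS and knockout unstimulated dendritic cell libraries that enter this difference, 0 members were called. For 5S 75-95 the difference was -0.24 ± 0.28, not called.

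**Figure D4:**
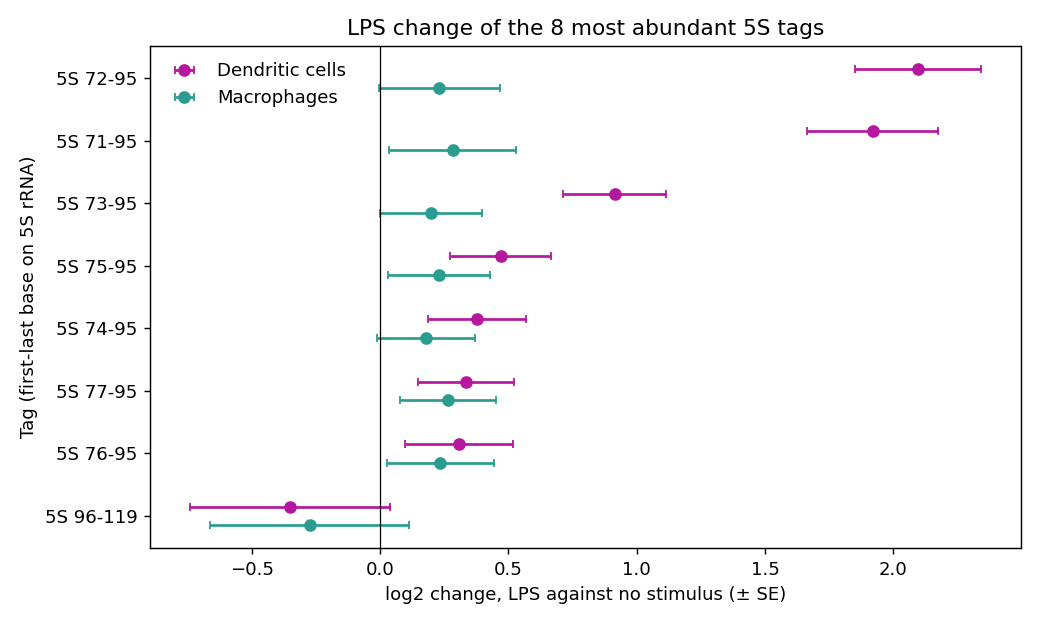
Log2 change with LPS against no stimulus (edgeR, ± SE, 2 matched pairs per cell type) for the 8 most abundant tags. 5S 72-95 and 5S 71-95 stand at 2.10 and 1.92 in dendritic cells and at 0.23 and 0.28 in macrophages. The shorter forms that stop at base 95 lie between 0.18 and 0.47 in both cell types under this scaling, apart from 5S 73-95 at 0.91 in dendritic cells. The remaining tag is 5S 96-119. With 1 library at a time left out, its change was -0.86 to -0.017 in dendritic cells and -0.56 to 0.035 in macrophages.

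The summed 5S group rose with LPS in dendritic cells when tested among 490 small RNA genes, 11.8% of which were called. Its log2 change was 0.82 ± 0.18 (edgeR adjusted p = 0.00636), and 0.46 with total reads (adjusted p = 0.0514), where the median gene shifts from -0.00 to -0.36. Leaving out the wild-type LPS library gave 0.75 (adjusted p = 0.0592) and leaving out the knockout unstimulated library 0.78 (adjusted p = 0.0535). In macrophages the change was 0.07 ± 0.18 (10.2% of genes called), and the difference between cell types was -0.75 ± 0.25 (adjusted p = 0.121, 4.08% of genes called). When only tags found in no transcript of another type were counted, the change in dendritic cells was -0.27 (edgeR adjusted p = 0.471). That count drops 91.0% of member reads. Among them are most reads that stop at base 95 and all that stop within 3 nt of the 3′ end of a copy.

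Lipoproteins left the abundant 5S tags without called changes. In dendritic cells 0 of 150 members were called for the mean of oxLDL, eLDL and LDL (2 at an unadjusted p under 0.05, 0 with DESeq2), where 0% of all tags were called in either direction. Of all 16108 tags 758 were at an unadjusted p under 0.05. The 5S group change was 0.08 ± 0.14 in dendritic cells, with 0% of the 490 genes called, and -0.09 ± 0.14 in macrophages, with 5.1% called; both turned sign with total reads, to -0.04 and 0.15.

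In macrophages 2 rare members rose with lipoproteins, 5S 11-39 and 5S 11-38, which start at base 11 in the 5′ part of the molecule. 5S 11-39 stood at 1.11 RPM (15 reads) in wild-type and 0.974 RPM (19 reads) in knockout unstimulated macrophages. It was 86.5, 32.3 and 14.3 RPM with oxLDL, eLDL and LDL in wild-type and 51.4, 34.7 and 88.0 RPM in knockout macrophages. With LPS it was 12.0 and 10.4 RPM. Every stimulated macrophage library was thus above both unstimulated ones. In the 10 dendritic cell libraries it was 0 to 0.851 RPM, with 2 at 0.

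Both tags reached the filter's 5 RPM in stimulated macrophage libraries alone, 5S 11-39 in 8 and 5S 11-38 in 5, so they were tested only because they are high there, and the fit describes them without adding support. The edgeR log2 change of 5S 11-39 with lipoproteins in macrophages was 5.53 ± 0.88 (adjusted p = 0.0225) and that of 5S 11-38 was 4.49 ± 0.83 (adjusted p = 0.0391). The 6 lipoprotein libraries share 2 unstimulated controls, in which 5S 11-38 had 8 reads each. These were 2 of 150 members (1.33%), against 0.273% of all tags called higher and 0.584% called lower. The LPS change of 5S 11-39 in macrophages was 3.48 ± 0.87 (adjusted p = 0.0647) and did not pass. Both calls were lost when any 1 of the wild-type unstimulated (5S 11-39 adjusted p = 0.328), wild-type oxLDL (0.0714), wild-type eLDL (0.0531) or knockout unstimulated (0.127) macrophage libraries was left out, with log2 changes of 5S 11-39 between 5.25 and 5.79. They were also lost with the lower filter of 1 CPM (adjusted p = 0.0779 and 0.112). For neighbouring tags the log2 change with lipoproteins in macrophages was 0.11 ± 0.25 for 5S 11-30 and 1.56 ± 0.38 for 5S 11-34 (edgeR adjusted p = 0.0733), neither called.

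**Figure D5:**
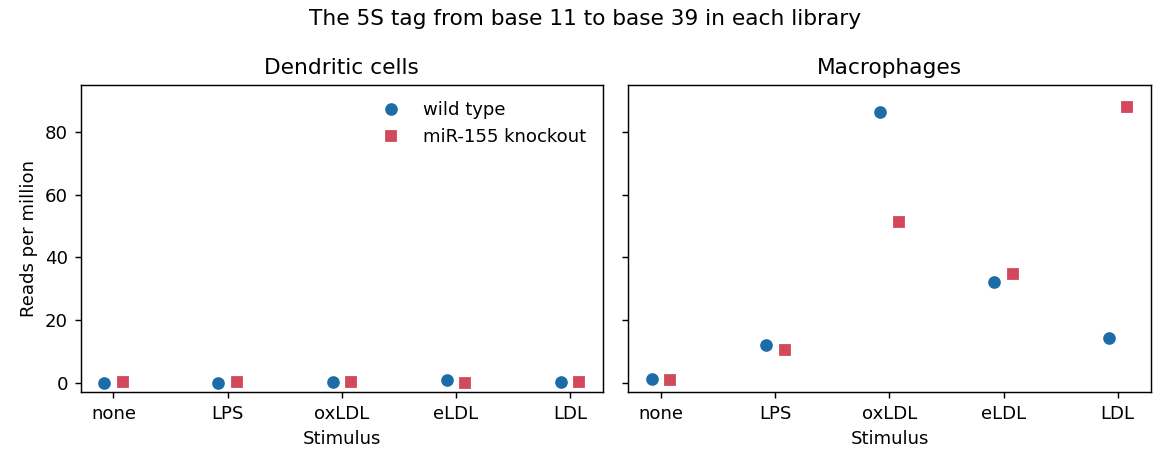
RPM of the tag from base 11 to base 39 of 5S rRNA in each of the 20 libraries, by stimulus and genotype; each point is 1 library. Unstimulated macrophages lie at 1.11 and 0.974 and stimulated ones between 10.4 and 88.0, while dendritic cells lie between 0 and 0.851.

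Knockout of miR-155 gave no called member. In dendritic cells 0 of 150 members passed by edgeR (1 at an unadjusted p under 0.05, 0 with DESeq2), where 0.664% of tags were called higher and 0.422% lower. In macrophages 0 passed (6 at an unadjusted p under 0.05, 1 with DESeq2), where 0.677% were called higher and 3.09% lower. At an unadjusted p under 0.05 were 1457 of all 16108 tags in dendritic cells and 1797 in macrophages. With total reads 1 member passed in macrophages and 23 were at an unadjusted p under 0.05. Of all tags 199 were then called higher, 459 lower and 2219 were at an unadjusted p under 0.05. The 5S group change was -0.04 ± 0.11 in dendritic cells and 0.05 ± 0.11 in macrophages, with 2.45% and 10.2% of genes called; with total reads the macrophage value was 0.26 (edgeR adjusted p = 0.104). By library values, the knockout level of nuclear rRNA was 0.985 times the wild-type level in dendritic cells (mean log2 difference -0.02 ± 0.17 SD, n = 5 pairs, exact two-sided permutation p = 0.875). In macrophages it was 1.20 times (0.26 ± 0.29 SD, n = 5 pairs, exact permutation p = 0.125), higher in 4 of 5 pairs. With 5 pairs the smallest p this test allows is 0.062.

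Macrophages had lower levels of the abundant 5S tags than dendritic cells. Nuclear rRNA stood at 11727 RPM on average in macrophages and 16229 RPM in dendritic cells, a ratio of 0.728 (mean log2 difference -0.46 ± 0.37 SD, n = 10 pairs matched by genotype and stimulus, exact two-sided permutation p = 0.00586, adjusted over the 6 tests on library values p = 0.0176). It was higher in macrophages in 1 of 10 pairs. The unread base touches this result, because a tag with N matches nothing. Base 20 also departed from the modal sequence more often in macrophages. Of reads that match 5S 72-95 at all other bases, 84.3% to 84.5% matched it exactly in macrophages and 99.5% to 99.6% in dendritic cells. 5S 77-95 is 19 nt long and holds no base 20, so masking that base leaves its match unchanged. When base 20 was left out of the match, the difference was -0.28 (exact permutation p = 0.0410, adjusted p = 0.123), with 13590 and 16587 RPM, and relative to miRNA reads it was -0.22 (adjusted p = 0.293).

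Among tags, 35 of the 150 members were lower and 21 higher in macrophages by edgeR, against 29.1% of all tags called lower and 32.6% called higher. With total reads the split was 32 lower and 29 higher. Of the 56 called, 11 of the higher reached the filter's minimum in macrophages alone and 5 of the lower in dendritic cells alone, so these were tested because of the cell type in which they are high. Of the 16 tested tags of the modal sequence that stop at base 95, 7 were lower and 0 higher, and of the 12 that stop at base 119, 9 were lower and 0 higher. Of the 74 that stop at base 40 or before, 16 were higher and 1 lower. The log2 difference was -0.74 ± 0.11 for 5S 72-95 (adjusted p = 1.34e-05), -0.30 ± 0.08 for 5S 77-95 (adjusted p = 0.00536) and -0.90 ± 0.17 for 5S 96-119 (adjusted p = 0.00033). With base 20 masked in the whole table these were -0.62, -0.42 and -0.82, all called, whereas 5S 76-95 went from -0.32 (adjusted p = 0.00724) to -0.20 (adjusted p = 0.0626) and lost its call. The log2 difference of the 5S group was -0.49 ± 0.08 (edgeR adjusted p = 4.62e-05) among 490 genes, 71.8% of which were called, and it turned to 0.29 (adjusted p = 0.0139) when tags found in a transcript of another type were left out.

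Forms that run on to base 96 were lower still. 5S 72-96 was 43.4 to 156.5 RPM in dendritic cells and 15.7 to 31.9 RPM in macrophages, so the cell types did not overlap, with a log2 difference of -1.35 ± 0.13 (edgeR adjusted p = 1.73e-07, lower in 10 of 10 pairs). 5S 75-96 differed by -1.38 ± 0.15 (adjusted p = 4.8e-07, 10 of 10 pairs). In the other direction, 5S 11-39 was at 0.974 to 88.0 RPM in macrophages and at 0 to 0.851 RPM in dendritic cells, a log2 difference of 6.27 ± 0.50 in a tag that was tested only because it is high in macrophages. For 5S 11-38, 8 of 10 dendritic cell libraries were at 0 and the macrophage libraries at 0.41 to 18.5 RPM. The share of reads that start within 3 nt of the 5′ end of a copy was 0.798% in macrophages and 0.338% in dendritic cells, higher in 10 of 10 pairs (difference 0.460 ± 0.269 points SD, n = 10, exact permutation p = 0.00195, the smallest this test allows, adjusted p = 0.0117). The share that stops within 3 nt of the 3′ end was 8.82% and 9.53% (exact permutation p = 0.346), and the mean length 22.91 and 22.87 nt (exact permutation p = 0.781).

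Tags that depart from the modal sequence by 1 base also differed between cell types. Of 11 such tags tested, 5 were called higher and 5 lower in macrophages, with the difference farthest from 0 for the rare 5S 76-95 G93T (-6.43 ± 0.41, 23.9 reads on average). Apart from 5S 71-95 A90G, each called tag reached the filter's minimum only in the cell type where it is high. For those tags the fit describes the difference without adding support. The pair with at least 50 reads on average that differed most in each direction is shown with that base in capitals, and the tokens give the base of the modal sequence, the position on 5S, and the base of the tag.
5S 71-95 A90G: gttagtacttggatgggagGccgcc
5S 75-95 T76G: gGacttggatgggagaccgcc
5S 71-95 A90G was 67.3 to 129.1 RPM in macrophages and 2.63 to 10.5 RPM in dendritic cells, and its departing base is base 20 of the read. The same base of the read departs in 5S 72-95 C91T, 5S 73-95 C92T and 5S 74-95 G93A, also called higher in macrophages. The remaining tag called higher, 5S 74-95 T76G, departs at another base. Relative to 5S 71-95, 5S 71-95 A90G was 6.74% to 7.50% in macrophages and 0.180% to 0.323% in dendritic cells. Of the member reads outside the modal sequence, 60.0% to 67.5% departed at base 20 of the read in macrophages and 3.93% to 8.97% in dendritic cells. 5S 75-95 T76G was 28.9 to 43.4 RPM in dendritic cells and 0.386 to 1.10 RPM in macrophages, that is 1.98% to 2.47% and 0.0369% to 0.124% of 5S 75-95. Tags with the same substitution were also lower in macrophages for 5S 73-95 T76G (log2 difference -3.10 ± 0.16) and 5S 72-95 T76G (-3.53 ± 0.23). 5S 73-95 T76G was 1.33% to 1.67% of 5S 73-95 in dendritic cells and 0.179% to 0.360% in macrophages. Of the tested tags with this substitution, only 5S 74-95 T76G went the other way, with 0.152 to 0.780 RPM in dendritic cells and 4.79 to 8.09 RPM in macrophages. 5S 75-95 T76G and 5S 74-95 T76G each reached the filter's minimum only in the cell type where they are high. 5S 71-95 A90G, 5S 75-95 T76G and 5S 74-95 T76G each match 1 or 2 annotated copies exactly. Whether such copies or sequencing gave the reads of tags with a departing base was not tested.

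Other RNAs of the ribosome and of RNA polymerase III were taken from 4 lists. Of the other transcripts of RNA polymerase III, 2 of 7 tested rose with LPS in dendritic cells and 0 fell: Rny1, a Y RNA, with a log2 change of 2.54 ± 0.35 (edgeR adjusted p = 0.000354), and Vaultrc5, a vault RNA, with 1.79 ± 0.18 (adjusted p = 1.21e-05); with total reads these were 2.17 and 1.43, both called. Over all genes 7.55% were called higher and 4.29% lower. With total reads 2 of the 7 fell, Rn7sk by 1.01 and Rpph1 by 1.05 on the log2 scale (edgeR adjusted p = 0.0228 and 0.0372). Of all 490 genes 105 were called lower and 28 higher under that scaling. In the TMM-scaled fit the list median was -0.30, against -0.00 for all 490 genes. Both also differed in their LPS change between cell types, by -2.86 ± 0.48 for Rny1 and -1.61 ± 0.25 for Vaultrc5 (edgeR adjusted p = 0.00267 and 0.00134). Between cell types 5 of the 7 were lower in macrophages, where 33.5% of all genes were called lower and 38.4% higher, among them Rpph1, the RNA of RNase P, with a log2 difference of -1.32 ± 0.15, and 1, Vaultrc5, was higher by 0.75 ± 0.08. Rn7s1 and Rn7s2, the RNA of the signal recognition particle, share their reads and both count in the 5; with total reads they were at -0.26 (adjusted p = 0.0720) and 3 of the 7 were called lower.

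In the main edgeR fit mitochondrial rRNA was called in the opposite direction to the 5S group between cell types. Without tags found in a transcript of another type the 5S group was at 0.29 (edgeR adjusted p = 0.0139), the same direction as mitochondrial rRNA. mt-Rnr1, the small subunit RNA, was higher in macrophages by 1.26 ± 0.19 and mt-Rnr2, the large subunit RNA, by 0.44 ± 0.12 (edgeR adjusted p = 2.17e-05 and 0.00484). Neither of the 2 was called for LPS in either cell type, where 11.8% of all genes were called in dendritic cells and 10.2% in macrophages. Of the 12 RNAs of ribosome biogenesis 6 were tested, and 4 were higher in macrophages, against the 38.4% of all genes called higher, among them Snord118 (U8), which acts in 28S and 5.8S maturation, by 1.01 ± 0.21, and Snord14c and Snord14d, which share reads, by 1.23 ± 0.16 each. For LPS 0 of these 6 were called in either cell type, against the 11.8% and 10.2% of all genes. With total reads 1 of the 6, Snord22, fell in dendritic cells by 1.16 on the log2 scale (edgeR adjusted p = 0.0112). Of all 490 genes 105 were called lower there. Of the 5 loci of the 45S precursor 2 were tested: Gm26917 was lower in macrophages, at -0.81 ± 0.14 (adjusted p = 8.05e-05) and Gm42418 gave 0.13 ± 0.11, not called.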

How the data were processed

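Small RNA of 20 cultures was extracted with Trizol and sequenced from Illumina TruSeq libraries, per the labels' protocols. The deposited files give, for each distinct sequence, its read count as the authors made it; CASAVA 1.8.2 is named in the submitters' processing notes, and no source used here states the adapter trimming, length limits or any aligner. Tags were matched without mismatch to GENCODE M21 transcripts. The members and lists were chosen with earlier results of these data known. Counts were tested with edgeR 4.0.16 (R 4.3.3; robust quasi-likelihood, TMM with all file reads as library size, Benjamini-Hochberg threshold 0.05) in 1 fit of all 20 libraries with culture and stimulus within cell type (8 residual degrees of freedom). There is 1 library per condition, so the fit pools the spread over conditions, and stimulus tests rest on 2 matched pairs. P-values measure the spread between these libraries, which may be technical in part. The filter was 5 CPM in 2 libraries; 150 members passed, with 97.5% of member reads. Gene values summed the tags of a gene. Exact sign-flip permutation tests, two-sided, served 6 comparisons of library values. Named are all rRNA groups with reads, the 3 copies with most reads, the 12 tags with the highest mean, and per comparison up to 4 called members each way with the largest change, at least 50 reads on average and 1 direction in all pairs; 5S 75-95 in the difference of LPS changes, 5S 11-30, 5S 11-34 and the less changed called tags were picked after their values were seen. DESeq2 1.42.0, total reads, other filters and leaving out each library were alternatives; reading N as any base, masking base 20 and leaving out tags with N were added after seeing the data. In simulated counts for LPS in dendritic cells over 16108 tags (dispersion 0.02), edgeR called 153 of 200 tags changed 2-fold, in the right direction, and 6 others. The whole 5S sequence is not reported here.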

Additional observations from a re-analysis of the deposited data

Results flagged for a closer look

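The LPS change differed between macrophages and dendritic cells, by a test of the difference itself in the main edgeR fit, for 5S 72-95 (-1.87 on the log2 scale), 5S 71-95 (-1.64) and 5S 72-96 (-2.07). These calls depend on the processing: with total reads, and with the filter of 1 CPM, 0 members were called. Of all 16108 tags 29 were called higher and 24 lower with total reads. Of the 60260 tags at 1 CPM 1 was called higher and 21 lower. With 1 library at a time left out, the differences were -2.10 to -1.58, -1.86 to -1.37 and -2.34 to -1.74. Sets of 4 to 10 replicates do not exist here, so no search for single outlying libraries within a group was made.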

How the results depend on the processing

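Leaving out tags found in a transcript of another type turned 5 results. It removes most reads that stop at base 95 and all that stop within 3 nt of the 3′ end of a copy. Turned were the RPM difference between macrophages and dendritic cells (0.34 on the log2 scale) and the 5S group difference between them (0.29). The LPS change of the 5S group also turned in dendritic cells (-0.27) and in macrophages (-0.12), as did the difference of those (0.14). Leaving these tags out gave a length difference of 0.68 nt. It left 97 members tested, of which 26 were called between cell types, 2 for LPS in dendritic cells and 0 for the difference in LPS change. The RPM difference between cell types lost its call relative to miRNA reads (-0.22), with N read as any base (-0.34) and with base 20 masked (-0.28). Scaling by total reads gave a 5S group change of 0.46 for LPS in dendritic cells, -0.036 and 0.15 for lipoproteins in dendritic cells and macrophages, 1 member called for knockout in macrophages and 0 for the difference in LPS change; log2 changes with LPS in dendritic cells turned to -0.22 for 5S 75-95, -0.31 for 5S 74-95, -0.34 for 5S 77-95 and -0.37 for 5S 76-95, and the difference in LPS change to 0.41 for 5S 75-95. DESeq2 called the 5S group for the difference in LPS change (-0.84), 5 members for it and 1 for knockout in macrophages. With tags of at least 22 nt that group difference was -1.03 and called, and the knockout RPM difference in dendritic cells 0.0062. The 1 CPM filter tested 376 members and called 108 between cell types, where 18556 of 60260 tags were called higher and 15309 lower. For lipoproteins in macrophages it called 0 members (all tags: 1 higher, 7 lower). For the difference in LPS change it called 0 members (all tags: 1 higher, 21 lower). The cause of these shifts was not tested beyond what each setting removes.

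Leaving out 1 library at a time gave -0.087 to 0.014 for the knockout RPM difference in dendritic cells, -0.016 to 0.10 nt for the length difference, and 5S group changes of 0.75 to 1.05 (LPS, dendritic cells), -0.014 to 0.16 (LPS, macrophages), -0.055 to 0.20 and -0.18 to 0.033 (lipoproteins, dendritic cells and macrophages), -0.12 to 0.064 and -0.0011 to 0.21 (knockout, dendritic cells and macrophages) and -1.03 to -0.64 (difference in LPS change). Members called were 3 to 9 for LPS in dendritic cells, 0 to 1 in macrophages, 0 to 3 for lipoproteins in macrophages, 0 to 1 for knockout in macrophages and 0 to 4 for the difference in LPS change. The LPS change of 5S 96-119 in macrophages was -0.56 to 0.035. In 5S 73-95, 5S 71-96 and 5S 71-95 A90G the LPS call in dendritic cells was lost without the wild-type unstimulated or LPS library, and in 5S 73-95 also without the knockout unstimulated one. The labels carry no replicate numbers, so all pairs tested were matched by condition. Tags at a few RPM rest on few reads, and with 1 library per condition biological spread within a condition was not measured.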
